A study of Mus musculus with 4 samples.

Results

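Between E9.5 and E11.5, which count embryonic days, the RNA of mouse embryos that lack nucleoredoxin rose for genes of liver, blood, muscle and nerve cells. It fell for early embryonic timing genes and for placental hormones, which belong to tissue outside the embryo. The values come from the Nxn-null channel of each of 4 arrays with 2 colours, which gives 4 of the 8 channels of the series. One channel at each stage carried the Nxn-null RNA in the red dye Cy5 and one in the green dye Cy3. The Nxn-null embryos were homozygous for the mutant allele, written NRX -/-, on the C57BL/6J strain, at E9.5 or E11.5. The other channel of each array carried NRX +/+ RNA of the same strain and stage. Its values are given only where the genotypes are compared. It also entered the normalisation of each array and the removal of outlier probes, so the Nxn-null values are not independent of it. Total RNA was amplified with an oligo-dT primer before labelling. The labels do not say whether the arrays of a stage received separate RNA extracts, so every p-value below measures only the spread between arrays, which may be technical. How many embryos went into an RNA, which part of them was taken and whether membranes stayed on are unknown from these sources.

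Nucleoredoxin is a thioredoxin-related protein that binds Dishevelled, the relay between Wnt receptors and beta-catenin. Between these stages of mouse development the liver bud fills with hepatoblasts and blood-forming cells, the heart chambers differentiate, the first skeletal muscle fibres form, neurons leave the cycle in the spinal cord and brain, and the tailbud nears the end of its growth. Red cells made in the yolk sac circulate first and carry embryonic globins, and red cells made in the fetal liver, with adult globins, follow them.

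A level is given as the log2 of the normalised signal of 1 channel, in the order E9.5 Cy5, E9.5 Cy3, E11.5 Cy5, E11.5 Cy3. A change is the mean of the Cy5 and the Cy3 difference, E11.5 minus E9.5, in log2 units, with the moderated SE of limma (n = 2 arrays per stage). Most of these SEs lie near 0.063 because limma draws them towards the spread over all genes, so for single genes they understate the disagreement of the dyes where the pairs differ. In the 4 channels 51.5% to 69.7% of the gene probes were well above background. Across genes, the 2 channels of E9.5 had a Pearson correlation of 0.997, those of E11.5 one of 0.995, and pairs from different stages 0.976 to 0.979, which is a description only, since genes are no replicates. The 4 arrays lie on 1 slide.

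Of 16779 genes tested, 4755 rose and 4431 fell at an adjusted p under 0.05 in limma, that is 28.3% and 26.4% of all genes. The median change over all genes was -0.0044 with an interquartile range of -0.21 to 0.23, so most called changes were small. With 1 array left out, 4723 to 5928 genes were called. At least 2-fold apart were 459 genes (2.74%) that were higher and 129 (0.769%) that were lower at E11.5, and in each dye pair alone 401 and 79 genes passed that size. Among genes at least 4-fold apart 47 were higher and 20 lower. The sign was the same in both dyes for 84.9% of the genes. Of 5559 genes with several probes 1720 had probes of opposite sign, and the brightest probe is given here, with the others where they depart by more than 0.5.

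**Figure D1:**
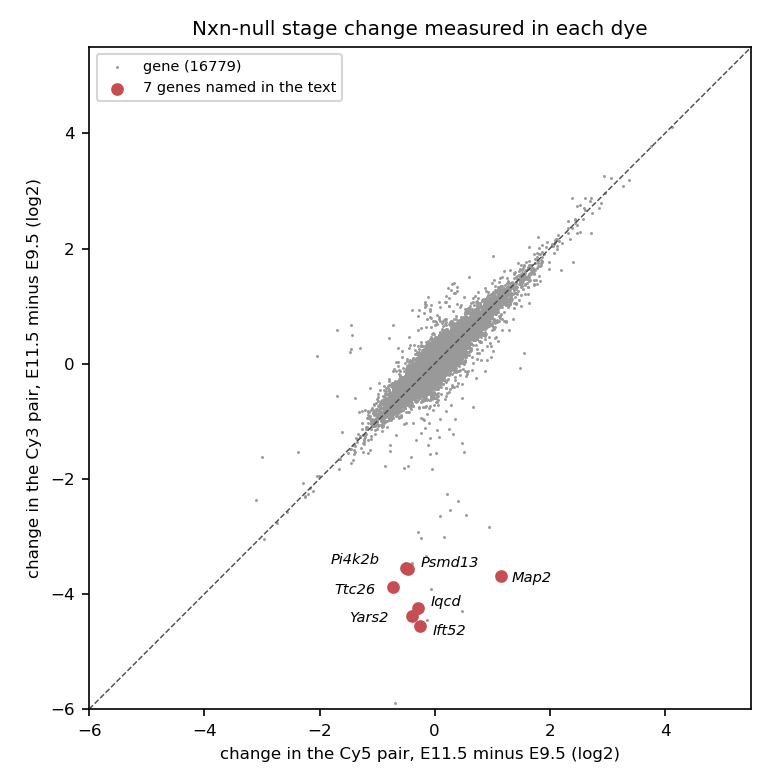
Change of 16779 genes from E9.5 to E11.5 in the Nxn-null channel, in the Cy5 pair (horizontal axis, log2) and in the Cy3 pair (vertical axis, log2), 1 grey point per gene and a dashed line of equality. The 7 red genes are far lower in the Cy3 pair than in the Cy5 pair, and the E11.5 array of the Cy3 pair has a dark patch or a bright local background at their spots.

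One block of spots on E11.5 replicate 2 was dark in both channels, over rows 522 to 532 and columns 25 to 62 of the array. Of the 15 lowest named changes, Ift52, Yars2, Ttc26, Iqcd and Psmd13 lie there, and the Pi4k2b spot on the same array had a local background of 2559 in green and 1815 in red. Their E11.5 Cy3 values lie far below the other 3 channels: Ift52 read 11.24, 11.37 and 10.98 in the other channels and 6.81 there. The other probes of Ift52 and Pi4k2b had changes of -0.33 and -0.44. The neuronal gene Map2 also lies in the patch, with a change of 1.15 in Cy5 and -3.68 in Cy3, and its other probe had a change of 0.55. Without the 583 probes in such places, which were chosen after seeing the data, 457 genes were at least 2-fold higher and 103 lower. Map2 is named again with its list, while other list members with a probe in the patch or a bright local background are not marked. Without such probes the comparison of genotypes tested 37 of the 39 BMP and TGF-beta genes and 25 of the 26 skeletal muscle genes. Further members of a list that illustrate the genes that fell or did not pass the test were chosen after their values were seen.

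Nxn, the targeted gene, read 12.44, 12.36, 12.28 and 12.06 in the 4 Nxn-null channels. Its signal was well above background throughout and slightly lower at E11.5, by 0.23 ± 0.068 (SE, n = 2 arrays per stage; limma adjusted p = 0.027), a call that was lost under 8 alternatives. On the arrays themselves the log2 ratio of Nxn-null over wild type was -1.04 and -0.93 for the E9.5 pair, and -1.24 and -1.42 for the later one. Where the probe lies relative to the mutated part of the gene is unknown here, so the signal left in the Nxn-null channel does not check the genotype.

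The 15 highest changes among called genes with a current symbol came from several tissues. S100a9, a calcium-binding protein of neutrophils and other myeloid cells, read 7.48, 7.57, 11.62 and 11.68. Both E11.5 channels lay above both E9.5 channels, and the change was 4.12 ± 0.063 (limma adjusted p = 2.47e-06) or 17.4-fold, the highest of all genes tested. Alb, which encodes serum albumin, followed at 13.7-fold, Myl2, the ventricular myosin light chain, at 9.73-fold, and Ahsg, the liver glycoprotein fetuin-A, at 9.08-fold. Cstdc6, a stefin-like protease inhibitor gene with close relatives that may share its probes, rose 8.82-fold, and Hic1, a transcriptional repressor, 8.60-fold. Serpina6, the corticosteroid-binding globulin of plasma, rose 7.81-fold and Scx, a transcription factor of tendon progenitors, 6.95-fold. Slc32a1, which loads GABA into synaptic vesicles, rose 6.80-fold and Penk, the precursor of enkephalins, 6.71-fold. The other Penk probe had a change of 1.69, against 2.75 here, and the lower of the other Cstdc6 probes one of 2.61, against 3.14. Krt15, a keratin of basal epidermis, rose 6.38-fold, and Cxcl14, a chemokine of skin and other epithelia, 6.24-fold. Nppa, the atrial natriuretic peptide, also rose 6.24-fold. Prim2, a subunit of DNA primase, rose 7.14-fold and Tmem130 rose 6.87-fold. All of these 15 genes kept their direction and their call in every alternative they were run under.

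**Figure D2:**
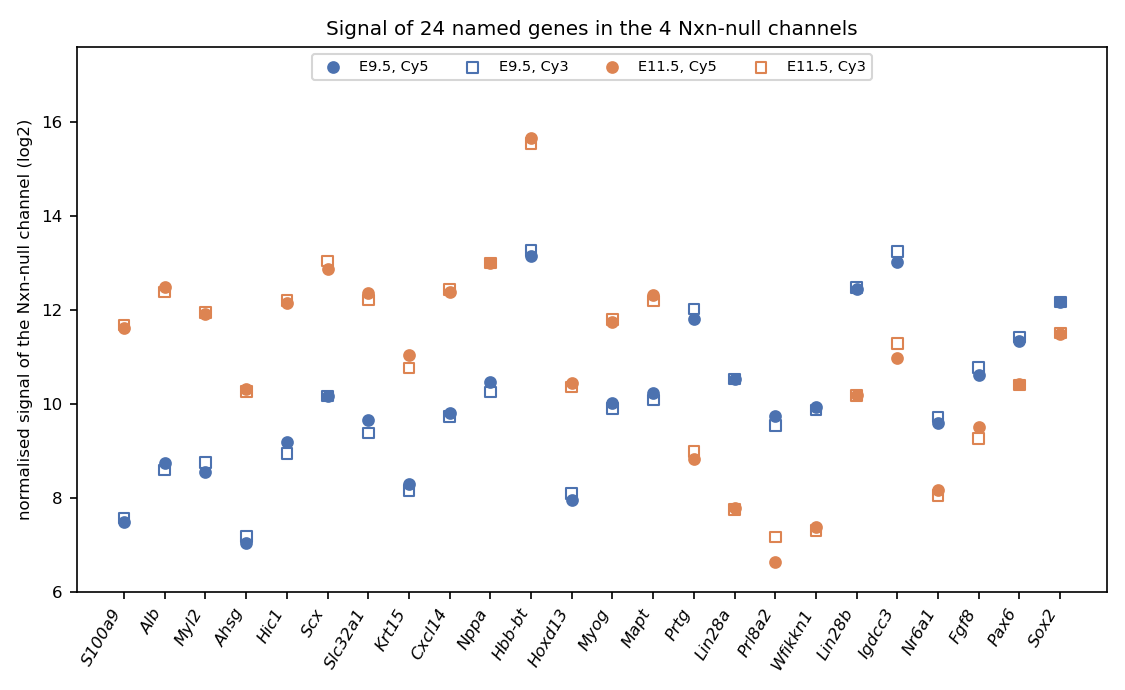
Normalised signal (log2, vertical axis) of 24 named genes in the 4 Nxn-null channels, with blue for E9.5, orange for E11.5, filled circles for Cy5 and open squares for Cy3. The changes run from S100a9 at the left, with 4.12, to Sox2 at the right, with -0.67. The 24 genes were picked with their values known, so that their stages do not overlap is no result about all genes.

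The liver list held 27 tested genes with a median change of 1.07, against -0.0044 for all genes, and 23 of them rose while 1 fell. All 27 were well above background on both E11.5 arrays, but only 18 on both E9.5 arrays. The others passed the filter through E11.5 alone, which favours a rise. Alb read 8.73, 8.59, 12.49 and 12.38. Afp, alpha-fetoprotein, which is made in fetal liver and in the yolk sac, read 13.59, 13.07, 15.98 and 15.96. For both genes the E11.5 channels lay far above the E9.5 channels, by 3.77 ± 0.063 for Alb and 2.64 ± 0.12 for Afp. Ahsg was above background on 1 of 2 arrays at E9.5 and on both at E11.5, and changed by 3.18 ± 0.073. Rbp4, the plasma carrier of retinol, rose by 1.81 ± 0.064. Other members that rose were secreted plasma proteins too, among them F2, Trf, Apoa2, Fgg and Apoa1 with changes between 1.17 and 1.81. The exception was Ttpa, the tocopherol transfer protein, which fell by 0.74. Hnf4a, the hepatocyte transcription factor, had a change of -0.11 and did not pass the test. In a bulk RNA, more cells of a type and more RNA per cell cannot be told apart, here or in any list below.

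Since liver, blood and muscle genes rose, the 150 bases before the annotated start of 4 members are shown, 5′ to 3′ on the strand of the gene, from RefSeq on GRCm38.p6. Alb lies on the plus strand at chr5:90460720-90460869, Afp on the plus strand at chr5:90490564-90490713, Hbb-bt on the minus strand at chr7:103813924-103814073 and Myog on the plus strand at chr1:134289854-134290003. Capitals mark every match of the motifs searched. TATAAA (the letters of a TATA box) was searched in all 4 windows. It was found in Hbb-bt, 28 to 23 bases before the start, and in Afp, only 7 to 2 bases before it. CCAAT was searched in all but Myog, and GTTAAT (part of the site of HNF1 factors) in Alb and Afp. CACCC and GATAA (letters bound by Klf1-type and GATA factors) were searched in Hbb-bt, where GATAA had no match. CANNTG (the E-box) was searched in Myog. Each motif was searched on both strands, so that ATTGG marks a CCAAT of the other strand.
Alb: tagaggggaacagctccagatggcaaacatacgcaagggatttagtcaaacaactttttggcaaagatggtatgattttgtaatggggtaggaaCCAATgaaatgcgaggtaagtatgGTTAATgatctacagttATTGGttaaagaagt
Afp: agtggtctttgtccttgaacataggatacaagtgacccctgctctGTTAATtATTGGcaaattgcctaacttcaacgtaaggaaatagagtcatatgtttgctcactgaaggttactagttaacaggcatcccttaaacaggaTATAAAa
Hbb-bt: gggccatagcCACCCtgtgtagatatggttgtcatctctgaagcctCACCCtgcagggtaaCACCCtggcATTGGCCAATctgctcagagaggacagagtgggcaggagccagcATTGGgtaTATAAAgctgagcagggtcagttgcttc
Myog: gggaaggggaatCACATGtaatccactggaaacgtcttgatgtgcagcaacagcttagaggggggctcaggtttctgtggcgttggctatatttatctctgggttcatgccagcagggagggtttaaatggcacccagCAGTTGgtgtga
Alb and Afp each held 1 GTTAAT, and Hbb-bt held 3 CACCC and 3 CCAAT, 2 of the latter side by side. Of all 32851 promoters in the table, 3.71% held GTTAAT in this window, 24.5% CCAAT, 37.4% CACCC, 13.3% GATAA, 7.57% TATAAA and 47.7% CANNTG. Counting each gene once, 8 of 22 liver genes with a promoter in the table held GTTAAT, against 4.34% of all genes. CCAAT was in 6 of these 22, that is 27.3%, no more than the 27.7% of all genes. TATAAA was in 22.7% of them, against 8.89%. In the primitive red cell list 9 of 18 held GATAA, against 15.4%, and 12 of 18 held CACCC, against 40.5%. The same red cell genes held CCAAT in 38.9%, against 27.7%, and TATAAA in 27.8%, against 8.89%. In the skeletal muscle list 14 of 20 held CANNTG, against 51.2%, and 30% held TATAAA. A match is a run of letters and was not tested as a site.

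Genes of macrophages, mast cells and platelets had the highest median of the 45 lists, 1.12, and 23 of 24 rose. All 24 were well above background on both E11.5 arrays, but only 14 on both E9.5 arrays. The others passed the filter through E11.5 alone, which favours a rise. Lyz2, lysozyme of macrophages, read 9.09, 9.0, 11.69 and 11.67. C1qc, a chain of complement C1q made by macrophages, read 7.68, 7.66, 9.81 and 9.65. The stages of both genes were well apart, with changes of 2.64 ± 0.064 and 2.06 ± 0.068. The other Lyz2 probe had a change of only 0.49. Csf1r, the receptor that macrophages need for growth, rose by 1.61 ± 0.066, with 0.60 at its other probe. Pf4, a chemokine stored in platelets, rose by 2.09 ± 0.065 and Ppbp, another one, by 1.98. F13a1, a chain of factor XIII, had a mean change of 0.70 and did not pass the test, because its E11.5 channels read 9.30 and 7.98.

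In the primitive red cell list 22 of 25 genes rose and none fell, with a median of 1.0. Rhd, the Rh blood group antigen, read 9.14, 9.15, 11.29 and 11.39. Hbb-bh1, an embryonic beta-like globin, read 17.10, 16.61, 17.03 and 16.42. The Rhd stages were apart by 2.19 ± 0.065, while those of Hbb-bh1 overlapped, with a change of -0.13 ± 0.067 (limma adjusted p = 0.15). The other embryonic globins rose modestly, Hbb-y by 0.66 ± 0.13 and Hba-x by 0.34 ± 0.066, and the call of Hba-x was lost under 6 alternatives, that of Hbb-y under 3. Hemgn, a nuclear protein of blood progenitors, rose by 1.68, with 0.36 and 1.19 at its other probes, and Gfi1b and Nfe2, transcription factors of red cells and platelets, by 1.54 and 1.32.

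Among genes of definitive blood and stem cells 16 of 22 rose and none fell, with a median of 0.38. Hbb-bt, an adult beta globin gene with a near-identical neighbour that its probe may not separate, read 13.14, 13.26, 15.66 and 15.55. Its E11.5 channels lay 2.40 ± 0.078 above those of E9.5, and its other probes gave 2.38 and 3.37. Hba-a1, an adult alpha globin with the same limit, rose by 0.83 ± 0.090. Bcl11a, which represses embryonic globin genes, rose by 1.87 ± 0.064, and its other probes gave 1.61 and 1.64. Whether the Bcl11a RNA came from blood cells or from other cells cannot be told from a bulk RNA. Car2, a carbonic anhydrase, rose by 1.31. Kit, Runx1 and Cd34, which mark blood stem and progenitor cells, had changes of 0.04, -0.10 and -0.15, none of which passed the test, and the other Runx1 probe had a change of 0.43.

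In heart muscle 17 of 25 genes rose and 2 fell, with a median of 0.77. Myl2 read 8.54, 8.75, 11.91 and 11.94. Nppa read 10.46, 10.25, 12.99 and 13. Myh7, the slow myosin heavy chain of ventricle, read 13.27, 12.90, 15.07 and 15.10. All E11.5 channels were above all E9.5 channels for these genes, by 3.28 ± 0.072, 2.64 ± 0.077 and 2.00 ± 0.10. Myl3, Actn2, Nppb, Myh6 and Tnni3, further parts of the contractile apparatus or its hormones, rose by 1.19 to 1.75, although the other probes of Myl3 and Nppb had changes of 0.31 and 0.92. Of the early cardiac transcription factors, Nkx2-5, Gata4 and Hand2 had changes of 0.10, 0.04 and 0.03 and did not pass the test, and Tbx20 fell by 0.22. Gja1, a gap junction protein, fell by 0.56.

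Skeletal muscle genes rose in 23 of 26 cases, with a median of 0.97 and 1 gene lower. Myog, the transcription factor that starts muscle differentiation and whose upstream bases are shown above, read 10.01, 9.89, 11.74 and 11.79. Myh3, the embryonic myosin heavy chain, read 11.01, 10.81, 13.04 and 12.88. Both genes were well apart between the stages, by 1.82 ± 0.071 and 2.05 ± 0.063. Myod1 rose by 0.97 and the acetylcholine receptor subunit Chrna1 by 1.17, with 0.47 at its other probe. Myf6, another factor of the Myod1 family, was the member that fell, by 0.74. Several members of this list, such as Myl4, Actc1 and Tnnt2, are also made by the embryonic heart.

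Neuronal genes rose in 28 of 30 cases, with a median of 0.99, and the ones not called were L1cam and Map2. Mapt, the axonal microtubule protein tau, read 10.22, 10.08, 12.31 and 12.19. Dcx, doublecortin of migrating neurons, read 10.97, 11.17, 12.71 and 12.80. The stages were apart by 2.10 ± 0.063 for Mapt and 1.68 ± 0.066 for Dcx, although the other Dcx probe gave 0.40. Stmn3, a tubulin-binding protein, rose by 1.67 ± 0.083, and Tubb3, the neuronal beta tubulin, by 0.94. In a list of motor, sensory and autonomic neuron types 13 of 26 rose and 4 fell, and 8 to 11 rose with 1 array left out. Slc32a1 read 9.65, 9.38, 12.35 and 12.21, a change of 2.77 ± 0.068. Gad2, an enzyme that makes GABA, rose by 1.59, Prph, an intermediate filament of peripheral neurons, by 1.63 and Slc17a6, a glutamate transporter of synaptic vesicles, by 1.47. Gad2 and Prph were well above background on 1 of 2 arrays at E9.5, and the other Gad2 probe had a change of 0.89. Isl1 and Chat of motor neurons had changes of -0.09 and 0.09 and did not pass the test, and Phox2a and Hand1 of autonomic neurons fell by 0.53 and 0.86.

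Factors of neural progenitors moved the other way, with 14 of 29 lower, 5 higher and a median of -0.22. Prtg, an immunoglobulin-type receptor of the early neural tube and mesoderm, read 11.81, 12.02, 8.83 and 8.98. Its E11.5 channels were far below those of E9.5, by -3.01 ± 0.064 or 8.04-fold, the lowest change of a called gene with a current symbol, and its other probe gave -1.66. Olig3, a factor of dorsal progenitors, had a change of -1.08, Pax6 of -0.97, Nkx6-1 of -0.85 and Sox2 of -0.67, each past the test. Fabp7, a fatty-acid binding protein of radial glia, rose by 1.08 and Nes, the filament protein nestin, by 0.49. In the list of proneural factors 10 of 18 genes rose and 3 fell. It also holds genes that are not proneural factors, such as Lhx1 and the Notch ligand Dll1. Over the settings run, the change of Neurog1 lay between -0.11 and 0.22 and that of Neurog2 between 0.05 and 0.32. Lhx1 rose by 1.90, with 1.20 at its other probe, and Hes6 by 0.84, and the members that fell were Neurod4, Neurod1 and Dll1 at -0.71, -0.33 and -0.23.

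In the cartilage and bone list 18 of 22 rose and 3 fell, with a median of 0.51, and in collagens and matrix 34 of 39 rose and 2 fell, with a median of 0.52. All 22 cartilage and bone genes were above background on both E11.5 arrays, but only 17 on both E9.5 arrays, so the filter favoured a rise. Matn4, a matrilin of cartilage matrix, read 7.22, 7.19, 8.86 and 9.22. Ogn, a small proteoglycan, read 7.61, 7.89, 10.32 and 10.16. The stages of both were apart, by 1.83 ± 0.097 and 2.49 ± 0.11, with Matn4 well above background on 1 of 2 arrays at E9.5. Col9a3 of cartilage rose by 1.67, Runx2, the bone transcription factor, by 1.38, Col2a1 by 0.73 and Sox9 by 0.37, and at E9.5 Col9a3 and Runx2 were above background on 1 of 2 arrays. Scx read 10.17 in both E9.5 channels and 12.88 and 13.04 at E11.5. The members that fell were Hapln1, which links hyaluronan to proteoglycans, at -1.33, Alpl, the tissue alkaline phosphatase, at -0.84, and Spp1, osteopontin, at -0.47.

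Of 12 posterior Hox genes 10 rose and none fell, with a median of 0.60. Of 23 anterior and middle ones 7 rose and 7 fell, or 30.4% each, near the 28.3% and 26.4% of all genes. Their median was -0.05, and its sign changed under 6 alternatives. Hoxd13, which patterns the distal limb and the genital region, read 7.96, 8.09, 10.44 and 10.36. Hoxb1, which patterns the hindbrain, read 8.58, 8.46, 7.57 and 7.52. The stages of both were apart in opposite directions, by 2.38 ± 0.074 and -0.97 ± 0.064, and the other Hoxd13 probe gave 0.94. Hoxa10 and Hoxc9 rose by 1.59 and 1.19. Hoxc10 was not well above background on either array at E9.5. It was 2.62-fold higher at E11.5 on the mean of both dyes, with changes of 1.56 in Cy5 and 1.21 in Cy3. Hoxd4 had a change of -0.93. Pitx1, which gives the hindlimb its identity, rose by 1.56, whereas Shh, the signal of the posterior limb bud and the floor plate, had a change of -0.96 and Fgf8, a signal of the limb ridge and tailbud, of -1.31.

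In the surface ectoderm list the keratins went both ways. Krt5 and Krt14, the keratin pair of basal epidermis, rose by 2.48 and 1.79, and Gjb2, a gap junction protein, by 2.12. The simple-epithelium keratins Krt8 and Krt18 had changes of -0.29 and -0.63, and of all 24 genes of the list 9 rose, 9 fell and the median was -0.03, with its sign changed under 2 alternatives. Cryaa, the lens alpha crystallin, read 7.54, 7.18, 10.01 and 9.91, a change of 2.60 ± 0.081 with 1.22 at its other probe, and it was well above background on 1 of 2 arrays at E9.5. The lens and eye list had 9 of 15 genes higher and 3 lower, among the latter Pax6 and Otx2. Its median was 0.43, but -0.07 when only genes above background at both stages were kept, so its rise depends on the filter.

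The Lin28 and let-7 timing list had the lowest median but one of the 45 lists, -0.39, with 12 of 17 lower and 2 higher. Lin28 proteins block the maturation of let-7 microRNAs in early embryos, and let-7 in turn lowers their mRNAs. Lin28a read 10.52, 10.53, 7.78 and 7.75. Lin28b read 12.44, 12.48, 10.19 and 10.18. The E11.5 channels were below the E9.5 channels for both, by -2.76 ± 0.063 and -2.27 ± 0.063, while the other Lin28b probe gave -0.49. Nr6a1, a nuclear receptor of early embryos, had a change of -1.55 and Arid3a of -0.81. Igf2bp1 and Igf2bp3, RNA-binding proteins that let-7 targets, had changes of -0.65 and -0.74, and Hmga2, another let-7 target, of -0.05, which did not pass the test. MicroRNAs were not analysed here.

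Igdcc3, a relative of Prtg, read 13.02, 13.24, 10.97 and 11.29. Wfikkn1, a secreted binder of growth factors, read 9.93, 9.87, 7.37 and 7.30. Their stages were apart by -2.00 ± 0.066 and -2.57 ± 0.063. Sall4, a pluripotency and limb factor, had a change of -1.75 ± 0.072 with -0.24 at its other probe, and the DNA methyltransferase Dnmt3b and the head factor Otx2 had changes of -0.86 each. Of 18 pluripotency and epiblast genes 7 fell and 5 rose, or 38.9% and 27.8%, against 26.4% and 28.3% of all genes. In the tailbud and presomitic mesoderm list 8 of 24 fell and 6 rose, or 33.3% and 25%, near those shares. The median of this list was 0.01 and changed sign under 7 alternatives. Fgf8, Cyp26a1, which breaks down retinoic acid, and Wnt3a, which keeps the tailbud growing, had changes of -1.31, -1.15 and -1.02, and Tbx6, a factor of presomitic mesoderm, rose by 0.87.

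Proliferation genes fell in 21 of 32 cases and rose in 3, with a median of -0.30. Ccne2, a cyclin of the G1 to S step, read 9.34, 9.46, 8.21 and 8.49, a change of -1.05 ± 0.070. Mcm3 of the replicative helicase had a change of -0.85, with -0.24 at its other probe, and Myc of -0.81. The members that rose were Cdkn1c and Cdkn1a, which inhibit cyclin-dependent kinases, at 0.92 and 0.28, and the proliferation antigen Mki67, at 0.20. The sign of Mki67 reversed under 2 scalings, to -0.11 and -0.16. Of 21 glycolysis genes 13 fell and 5 rose, and with 1 array left out 6 to 8 fell. Hk2, a hexokinase, and Slc2a1, the glucose transporter GLUT1, had changes of -0.81 and -0.71, whereas Hk1 and the neuronal enolase Eno2 rose by 0.86 and 0.76, with as little as 0.23 at the other Hk1 probes.

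**Figure D3:**
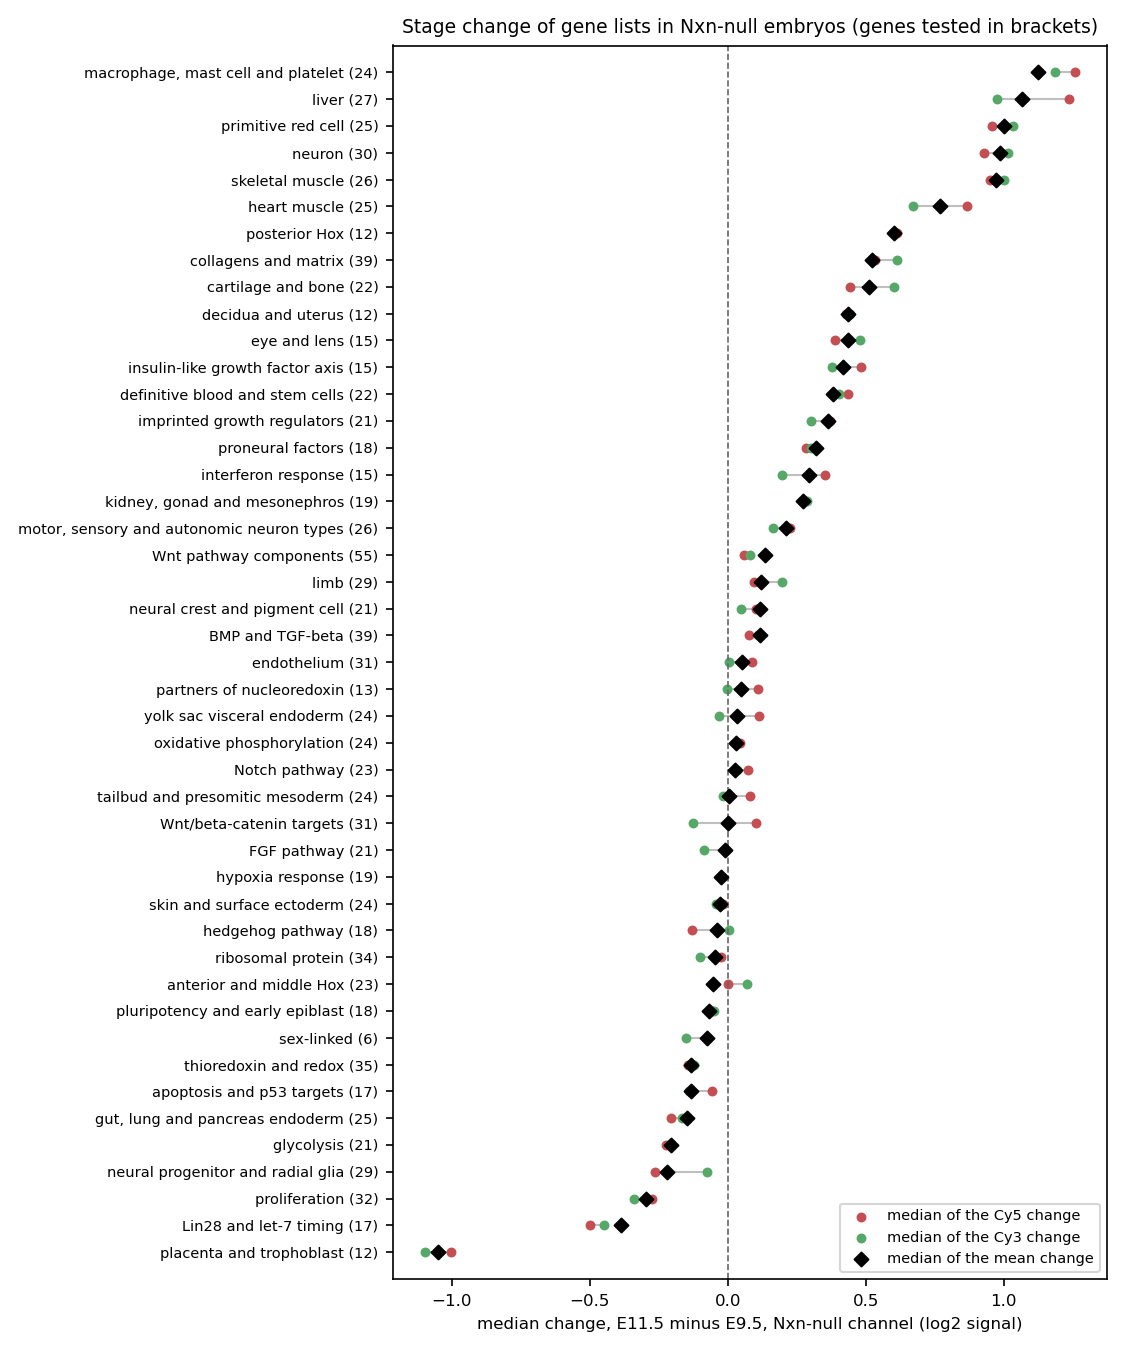
Median change from E9.5 to E11.5 in the Nxn-null channel (horizontal axis, log2 signal) for 45 gene lists, with the number of genes tested in brackets. Black diamonds are medians of the mean over both dyes, red points those of the Cy5 pair and green points those of the Cy3 pair, and the dashed line marks 0, near the median of all genes, -0.0044.

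Of 12 placenta and trophoblast genes tested, out of 31 listed, 10 fell and none rose, with a median of -1.05. Over the settings run this median lay between -1.75 and -0.16. Prl8a2, a prolactin-like hormone listed with the decidua, read 9.73, 9.53, 6.62 and 7.17. Prl3d2, a placental lactogen, read 9.13, 8.90, 6.85 and 6.83. Neither gene was well above background on any E11.5 array, and in the reported processing they were at least 5.92-fold and 4.34-fold lower. Over all settings run, their changes lay between -6.51 and -2.37 and between -5.69 and -1.79. Prl2c5 and Prl2c3 are close copies of each other that no list holds. Their brightest probes were 4.83-fold and 4.46-fold lower against the floor, but their other probes had changes of only -1.11 and -1.13. Prl3d1 had a change of -1.66. The log2 summed signal of the 12 genes was 12.70 and 12.57 in the E9.5 channels, against 11.88 and 11.77 in the later ones. All 12 were above background on both E9.5 arrays, but only 9 on both E11.5 arrays. The others passed the filter through E9.5 alone, which favours a fall. Of 25 decidua and uterus genes 12 could be tested, and Prl8a2 was the one that fell, while 8 rose, among them the proteoglycan Dcn at 1.20, which embryonic tissue also makes. These hormones belong to tissue outside the embryo, and how far such tissue differed between the E9.5 and E11.5 RNAs was not tested. In wild type the median change of the 12 placental genes was -0.65. Prl8a2 was above background on no wild-type E9.5 array, and its Nxn-null over wild-type ratios there were 2.35 and 2.92.

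In the yolk sac visceral endoderm list, of 24 genes 9 rose and 6 fell, with a median of 0.03 whose sign changed under 5 alternatives. That is 37.5% and 25%, against 28.3% and 26.4% of all genes. All 24 were above background on both E11.5 arrays, but only 18 on both E9.5 arrays. The log2 summed signal was 14.30 and 14.27 in the E9.5 channels, against 14.30 and 14.21 in the later ones. Cubn and Amn encode both parts of the cubam receptor for vitamin uptake. Cubn read 8.09, 8.14, 8.03 and 7.82 and did not pass the test, while Amn had a change of -0.90. Igfbp1, a binding protein of insulin-like growth factors, rose by 1.55 ± 0.091, and Emb, a membrane glycoprotein, had a change of -1.59, with -1.08 at its other probe. In the insulin-like growth factor axis 12 of 15 genes rose and 1 fell. Igf2 read 15.41, 15.54, 16.22 and 16.25, and the imprinted RNA H19 beside it rose by 0.99.

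Of 55 Wnt pathway components 20 (36.4%) rose and 12 (21.8%) fell, near the 28.3% and 26.4% of all genes, with a median of 0.13. Of 31 Wnt targets 9 rose and 13 fell (7 to 9 fell with 1 array left out), with a median of -0.00073 that changed sign under 6 alternatives. The antagonist Wif1 and the ligand Wnt11 rose by 1.18 and 1.01. Tcf7, a transcription factor that carries the signal in the nucleus, read 9.84, 9.77, 8.90 and 8.82, a change of -0.95 ± 0.063. The receptor Fzd6 had a change of -1.07. Axin2, a feedback target, had a change of -0.27, and its call was lost under 9 alternatives. Of 13 listed partners of nucleoredoxin 5 rose and 4 fell, and with 1 array left out 1 to 3 rose and at most 1 fell. Dvl1 and Dvl2, which encode Dishevelled proteins, had changes of 0.19 and 0.13, of which the second did not pass the test and the first lost its call under 12 alternatives.

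In the thioredoxin and redox list 15 of 35 genes fell and 4 rose, with a median of -0.13, and with 1 array left out 5 to 9 fell. Srxn1, which repairs oxidised peroxiredoxins, read 10.25, 10.20, 9.57 and 9.64, a change of -0.62 ± 0.068. Txnrd1, the cytosolic thioredoxin reductase, had a change of -0.49. Nxnl2, a relative of Nxn known from the retina, rose by 1.05 ± 0.066 and was well above background on 1 of 2 arrays at E9.5. Pmaip1, a pro-apoptotic p53 target, rose by 1.42, and Ddit4, a stress-induced inhibitor of growth signalling, by 1.06. Of 17 apoptosis and p53 targets 6 (35.3%) rose and 8 (47.1%) fell, with a median of -0.13. Of 19 hypoxia response genes 5 (26.3%) rose and 6 (31.6%) fell, with a median of -0.02. The shares of all genes were 28.3% and 26.4%, near those of the hypoxia list.

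The stage change of the Nxn-null embryos was then set against that of the wild type on the same arrays. The difference between them, Nxn-null change minus wild-type change, passed the limma test in 2315 of 17157 genes (13.5%), with 1421 (8.28%) higher in Nxn-null and 894 (5.21%) lower. Far fewer genes were called with 1 array left out, so list counts below, other than that of skeletal muscle, are followed by their range in these fits. In yolk sac endoderm 24 of 28 differences were higher and none lower, and 16 to 18 were higher with 1 array left out. In heart muscle 15 of 25 were higher and none lower, with a range of 10 to 13, and in posterior Hox 8 of 12 and none, with a range of 2 to 5. The medians of the wild-type changes of the members tested in Nxn-null were -1.59, -0.25 and -0.06 in these lists. Skeletal muscle had a median change of 0.97 in Nxn-null and 0.18 in wild type, and the median of its differences was 0.30. Its differences went both ways, with 13 of 26 higher and 4 lower, or 7 and 0 without the dye term. Actc1, which the embryonic heart also makes, differed by 1.23, whereas Myh3 differed by -0.47. Cubn had a change of -0.19 in Nxn-null and -4.36 in wild type, a difference of 4.17 ± 0.10 (limma adjusted p = 1.7e-16). Myl2 had 3.28 and -0.56, a difference of 3.84 ± 0.094 (limma adjusted p = 1.7e-16), and Hoxd13 had 2.38 and 0.85, a difference of 1.53 ± 0.088 (limma adjusted p = 6.98e-11). For Cubn and Myl2 the gap lay at E9.5: the Nxn-null over wild-type ratios were -3.94 and -4.57 for Cubn on the E9.5 arrays and 0.01 and -0.18 on the later ones, and for Myl2 -3.62 and -3.25 against 0.38 and 0.45. Both genes were thus lower in Nxn-null than in wild type in the E9.5 RNAs, and the part of tissue makeup in this was not tested.

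Of 29 liver genes the difference was higher in Nxn-null in 16, or 10 to 12 with 1 array left out, among them Rbp4 at 3.44 ± 0.088 and Afp at 3.30 ± 0.096, which the yolk sac also makes. It was lower in 4, a count of 0 whichever array was left out, among them Alb at -0.58 ± 0.088, Ahsg at -0.83 ± 0.090 and Serpina6 at -0.47 ± 0.089. Hbb-bt rose by 3.76 in wild type, a difference of -1.36 ± 0.097 (limma adjusted p = 1.83e-09), and Mapt by 2.81, a difference of -0.71 ± 0.088 (limma adjusted p = 6.39e-06). In the neuron list 18 of 30 differences were lower and none higher, Map2 of the dark patch included, but none was called whichever array was left out. In the primitive red cell list 10 of 25 were lower and 1 higher, and with 1 array left out at most 1 was lower. The differences of Cubn, Myl2, Hoxd13, Rbp4, Afp and Hbb-bt remained called whichever array was left out and without the dye term, and those of Alb, Ahsg, Serpina6, Mapt and Lin28a kept their direction but were not called in any of these fits. Prtg, Igdcc3, Wfikkn1 and Nr6a1 had differences between -0.03 and 0.12 that did not pass the test. The difference of Lin28a was 0.42 ± 0.11 (limma adjusted p = 0.014), with -3.18 in wild type and -2.76 in Nxn-null. Of 13 placental genes the difference was lower in 5 and higher in 3, or in 2 to 3 and 1 with 1 array left out.

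**Figure D4:**
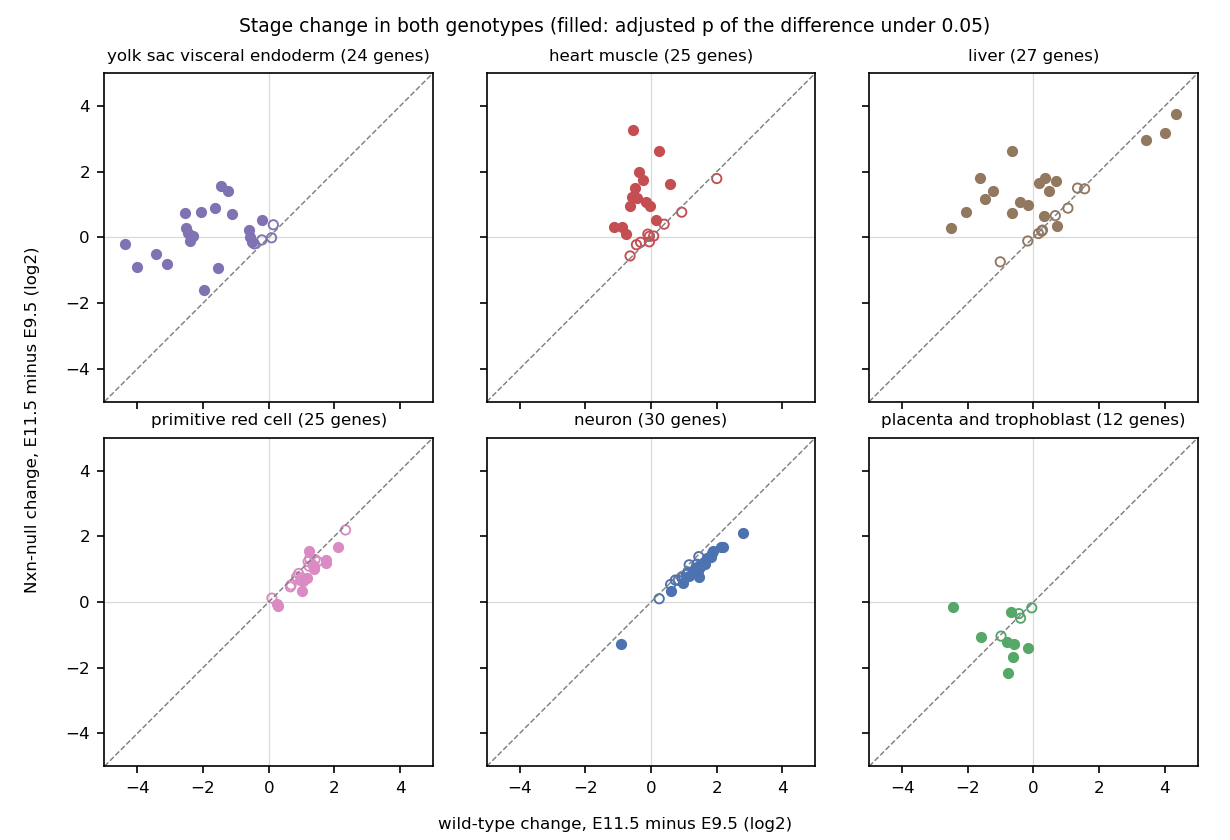
Change from E9.5 to E11.5 in wild type (horizontal axis, log2) and in Nxn-null (vertical axis, log2) for the genes of 6 lists, 1 point per gene and a dashed line of equality. Filled points passed the limma test of the difference: 20 of the 24 yolk sac genes tested in both comparisons and 15 of 25 heart genes are filled and above the line, while 18 of 30 neuron genes are filled and below it.

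Sex-linked genes differed between the groups. In the Nxn-null channels Xist, which coats the inactive X, was well above background at both stages, at 12.68, 12.54, 13.29 and 13.02, with stage changes of 0.02 to 0.32 at its other probes, and the Y-linked Ddx3y and Eif2s3y were not well above background at either stage. In the wild-type channels Xist was well above background on both E9.5 arrays and on no E11.5 array, and the Y-linked pair on no E9.5 array and on both E11.5 arrays. The E9.5 and E11.5 RNAs were thus alike in these genes in Nxn-null and unlike in wild type, and the part of this in the difference between genotypes was not tested.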

How the data were processed

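RNA of Nxn-null and wild-type embryos was hybridised together on 4 Agilent whole mouse genome arrays, with the dyes exchanged between the arrays of a stage. The deposited files are Agilent Feature Extraction output, version 9.1.3.1 per the file headers and 9.5.3.1 per the submitters' processing notes, with spot intensity values (mean signal and median local background) per channel and a log10 ratio per spot, both as deposited. The intensity values were corrected with normexp (offset 50), normalised by loess within arrays with control spots at weight 0 and by Aquantile between arrays in limma 3.58.1 (R 4.3.3). The deposited log10 ratio, red over green per the file headers, was turned to Nxn-null over wild type and used only as an alternative. Of 41174 gene probes, 302 were left out for outlier marks, and the 24345 well above background on both arrays of at least 1 stage were kept. The brightest probe stood for a gene. Names came from RefSeq by accession for 22951 probes, by current symbol for 6659 and by older symbol for 3109, and 8455 probes kept the name in the files.

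The Nxn-null channels were fitted with stage and dye (1 residual degree of freedom, 5.58 prior) and the 4 array ratios with stage and dye for the difference between genotypes. P-values are from limma with Benjamini-Hochberg adjustment at 0.05 over all genes. The replicate number equals the dye orientation, so the dye term is also the block of the pairs, and the number marks no shared litter in the labels. Genes not well above background on any array of a stage have a lower bound of the fold, which sets the bright stage against the higher of each array's lowest signal well above background and the probe's own signal. The bound holds for that probe and the reported processing only. It equals the measured fold where the probe's own signals are the higher. The scripts were tested on simulated data. Named genes were the 15 highest and 15 lowest called changes with 1 sign in both dyes and a current symbol, for each of 45 lists the first 3 members and up to 4 called members with the largest change, the 8 highest and 8 lowest differences between genotypes, and Nxn. The members and lists were chosen with earlier results of these data known. Alternatives changed the background correction, the normalisation, the filter, the probe rule, the dye term, the moderation and the arrays used. The array number limits the precision.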

Additional observations from a re-analysis of the deposited data

Results flagged for a closer look

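For 16 genes the stage change differed between Nxn-null and wild type more than for the other genes with a current symbol, by the limma test of the difference itself, 8 in each direction. Differences are Nxn-null minus wild type, in log2 units. Those of Xist, S100g, Eif2s3y, Ddx3y, Orly and Prl8a2 use a group that was not well above background on any of its arrays, so their sizes are not measured on both sides and have no order among themselves or against the rest.

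Higher in Nxn-null were Xist at 6.26 and S100g, a calcium-binding protein of epithelia that transport calcium, at 4.83. S100g was above background in wild type on both E9.5 arrays and on no E11.5 array, and in Nxn-null on 1 of 2 arrays at E9.5 and on none at E11.5. Cubn differed by 4.17, Rbp4 by 3.44, Spp2, a secreted phosphoprotein, by 3.30, Afp by 3.30 and Amn by 3.1. These 5 genes are listed with yolk sac endoderm or liver. Myl2 of heart muscle differed by 3.84.

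Lower in Nxn-null were the Y-linked Eif2s3y at -3.68, Ddx3y at -3.05 and Orly at -1.79, all of which were above background in the wild-type channel at E11.5 only. Prl8a2, the prolactin-like hormone, differed by -3.14, Prdm16, a zinc finger factor of progenitor cells, by -2.30 and the histone gene H4c9, one of many near-identical copies, by -2.24. Aph1b, a subunit of gamma-secretase, differed by -1.74 and Mxra7 by -1.71. The Nxn-null over wild-type ratio of H4c9 was 2.35 and 2.37 on the E9.5 arrays, then 0.09 and 0.14. That of Prdm16 was 2.28 and 2.24, then -0.15 and 0.07. That of Aph1b was 0.78 and 0.93, then -0.89 and -0.87, so its sign turned between the stages.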

How the results depend on the processing

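The count of genes changed between the stages in Nxn-null, 9186, was 1766 with no step between arrays (67.8% of them higher, against 51.8%), 5945 in a fit of all 8 channels and 4723 to 5928 with 1 array left out. Without the dye term, that is with no replicate block, it was 6740. The number of genes at least 2-fold apart, 588, was 1591 with the Feature Extraction processed signals. The count of differences between genotypes, 2315 with 61.4% higher, was 577 with the Feature Extraction log ratio (71.9%), 150 with no replicate block (80.7%), 403 with median centring in place of loess (80.7%) and 109 to 224 with 1 array left out. In the last 4 settings no difference of a neuron gene was called other than 1 with the Feature Extraction log ratio, whereas 16 to 20 yolk sac and 10 to 14 heart differences were. These are the changes that were called in the reported fit, or called under the alternative, and reversed. Uqcrc1 had -0.015 with no step between arrays, Mki67 -0.11 at the 75th percentile scaling and -0.16 with no step, and Mitf 0.079 and 0.12 in the same settings. With 1 array left out, Ldha ran from -0.48 to 0.072 (reversed without E9.5 replicate 1) and Iqcd from -4.57 to 0.039 (reversed without E11.5 replicate 2, the array with the dark patch). Of 263 named changes, 167 kept direction and side of the threshold with no step between arrays and 219 to 259 in the other settings that have a test. With 1 array left out, 8 to 11 of the motor, sensory and autonomic neuron genes rose (13 of all arrays), 3 to 4 surface ectoderm genes fell (9) and 14 to 15 proliferation genes fell (21). Likewise, 2 of the pluripotency genes rose (5), 3 to 4 anterior and middle Hox genes rose (7) and 3 to 6 fell (7), and 13 to 16 Wnt components rose (20) and 6 to 10 fell (12). Changes called in neither fit whose sign turned, such as those of Hbb-bh1, Hmga2 and Cdx2, are not listed. The cause of these shifts was not tested. Slide or scan as a block was not run, because all arrays share 1 slide and 1 scan. With 2 arrays per stage and 1 residual degree of freedom, errors rest mostly on the spread over all genes.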

Other observations

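Of 25 gut, lung and pancreas endoderm genes 12 fell and 2 rose, with a median of -0.15, and 6 to 8 fell with 1 array left out. Foxa2, a factor of endoderm and floor plate, read lower by 1.16 on the log2 scale at E11.5. In the hedgehog list 7 of 18 fell and 3 rose, or 4 to 5 and 1 to 3 with 1 array left out. Of 31 endothelial genes 7 fell and 6 rose, or 2 to 3 and 3 to 5 with 1 array left out, and the summed signal of the list in log2 units was 16.03 and 16.04 in the E9.5 channels, against 16.17 and 16.13 in the later ones. Of 19 kidney, gonad and mesonephros genes 12 rose and 1 fell, with 6 to 9 that rose when 1 array was left out, and of 15 interferon response genes 10 rose and 1 fell, of which 3 to 6 rose with 1 array left out. Inhba, a subunit of activin, read 7.42, 7.38, 9.54 and 9.55 and was among the BMP and TGF-beta genes, of which 15 of 39 rose and 9 fell, or 7 to 12 and 1 to 4 with 1 array left out.

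Over all genes 28.3% rose and 26.4% fell, and several lists were near or below these shares. In the endothelial list above they were 19.4% and 22.6%, and in the Notch list below 17.4% and 21.7%. Oxidative phosphorylation had shares of 25% and 12.5%, and ribosomal protein genes of 5.88% and 23.5%. Oxidative phosphorylation and ribosomal protein genes had medians near that of all genes, 0.03 and -0.05. In the first list 6 of 24 rose and 3 fell, and in the second 2 of 34 rose and 8 fell, while with 1 array left out 1 to 2 genes of the first rose and 0 to 3 fell, and 0 to 2 genes of the second rose and 0 to 3 fell. Of 23 Notch pathway genes 4 rose and 5 fell, or 2 to 3 and 1 to 3 with 1 array left out, and no member had a called difference between the genotypes.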
